A study of Mus musculus with 6 samples.

Results

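Interleukins are small secreted proteins by which immune, epithelial and stromal cells signal to each other. Most receptors are pairs of chains, one that binds the ligand and one that is shared between several receptors. In the uterus these signals direct leukocyte entry, epithelial defence and the preparation for implantation, and progesterone is known to restrain several inflammatory pathways there. The set described here holds the genes whose symbol starts with Il and a digit, leaving out the interleukin 4, 6, 11 and 13 ligands and receptors, which are 11 symbols. It has 64 genes of the 18193 measured with a single gene symbol, and each gene is represented by its brightest probe set, judged by the mean of the 6 arrays. The rule also takes in Il4i1, an amino acid oxidase, and Il1bos, an RNA antisense to Il1b, which are neither interleukins nor receptors. Of the other genes, 31 were counted as ligands, including antagonists and binding proteins such as Il1rn and Il18bp. The remaining 31 were counted as receptors, including the decoy Il1r2 and the binding protein Il22ra2.

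RNA from the whole uterus of female mice with the floxed Gata2 allele (GATA2 f/f, mixed background) was measured on one-colour arrays. All mice, in both groups, had their ovaries removed at 6 weeks and were 8 weeks old at the measurement, and no recombinase is named in the labels. The oil group (n = 3 arrays) received the vehicle, sesame oil, and the progesterone group (n = 3 arrays) received 1 mg of progesterone in 100 µl of oil, with tissue taken after 6 h. RNA was pooled from 3 mice, and it was not stated whether each array held its own pool, so p-values here reflect only how far these arrays differed, and that may be technical. The comparison asks which transcripts differ soon after a single dose of the hormone. In whole tissue, fewer cells of a type and less RNA per cell cannot be told apart.

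Markers of uterine epithelium, stroma and smooth muscle were far above background on all arrays, with list means from 9.58 to 11.72 on the log2 scale. Immune markers differed between arrays of the same group. The 11 measured neutrophil markers had a mean level of 4.55 to 7.07 with oil and 4.45 to 7.38 with progesterone, and the high arrays were oil replicate 3, progesterone replicate 2 and progesterone replicate 3. The 12 monocyte and macrophage markers reached means of 7.84 with oil and 7.92 with progesterone, both on replicate 3, and were lowest on replicate 1 of each group. The 4 adipocyte markers had a mean of 6.44 to 7.18 with oil and 5.01 to 6.51 with progesterone. None of the neutrophil, macrophage, dendritic cell, T cell, NK cell or B cell markers passed the test between groups in limma, and 0 of them had an unadjusted p under 0.05. With the replicate number as a block, Csf3r (neutrophil) and Cd14 (macrophage) passed as higher with progesterone (limma adjusted p = 0.0328 and 0.0160). In that fit 3 of 4 adipocyte and 3 of 7 endothelial markers were lower. Of 10 stromal markers 4 were higher and 2 lower, beside 7.6% and 8.49% of all genes. Without the block, Rora of the innate lymphoid list was lower and Hdc of the mast cell list higher (adjusted p = 0.00456 and 0.0164). The other members of these lists did not pass, 5 of 6 innate lymphoid and 8 of 9 mast cell markers. The median changes of the 2 lists were -0.15 and -0.05. In the epithelial list Wnt7a was lower and Cldn3 higher, in the stromal list 3 genes were higher and 1 lower, and in the endothelial list Cldn5 was lower. The part of these cells in the results below was not tested, except where a value without the arrays in question is given.

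Few genes of the set passed the test between groups in the fit without the replicate block. In limma with Benjamini-Hochberg adjustment over all genes, 1 of the 64 was higher and 2 were lower (adjusted p under 0.05), while 11.7% of all genes passed. Il17rd, an orphan chain of the interleukin 17 receptor family also known to inhibit fibroblast growth factor signalling, fell 1.52-fold at a level far above background. Il20ra, the alpha chain of the interleukin 20 receptor, rose 1.56-fold and Il20rb, the beta chain of the same receptor, fell 2.03-fold on the deposited scale. Both lay in or near the background range, where a fold is not exact: with an offset of 32 on the linear scale their log2 changes were 0.26 and -0.56, in place of 0.64 and -1.02. By direction, 5.92% of all genes were higher and 5.83% lower. None of the 31 genes of ligands, antagonists and ligand binding proteins passed in limma, and 2 of them had an unadjusted p under 0.05. Over the set the median change was -0.01 on the log2 scale, beside -0.02 over all genes.

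**Figure D1:**
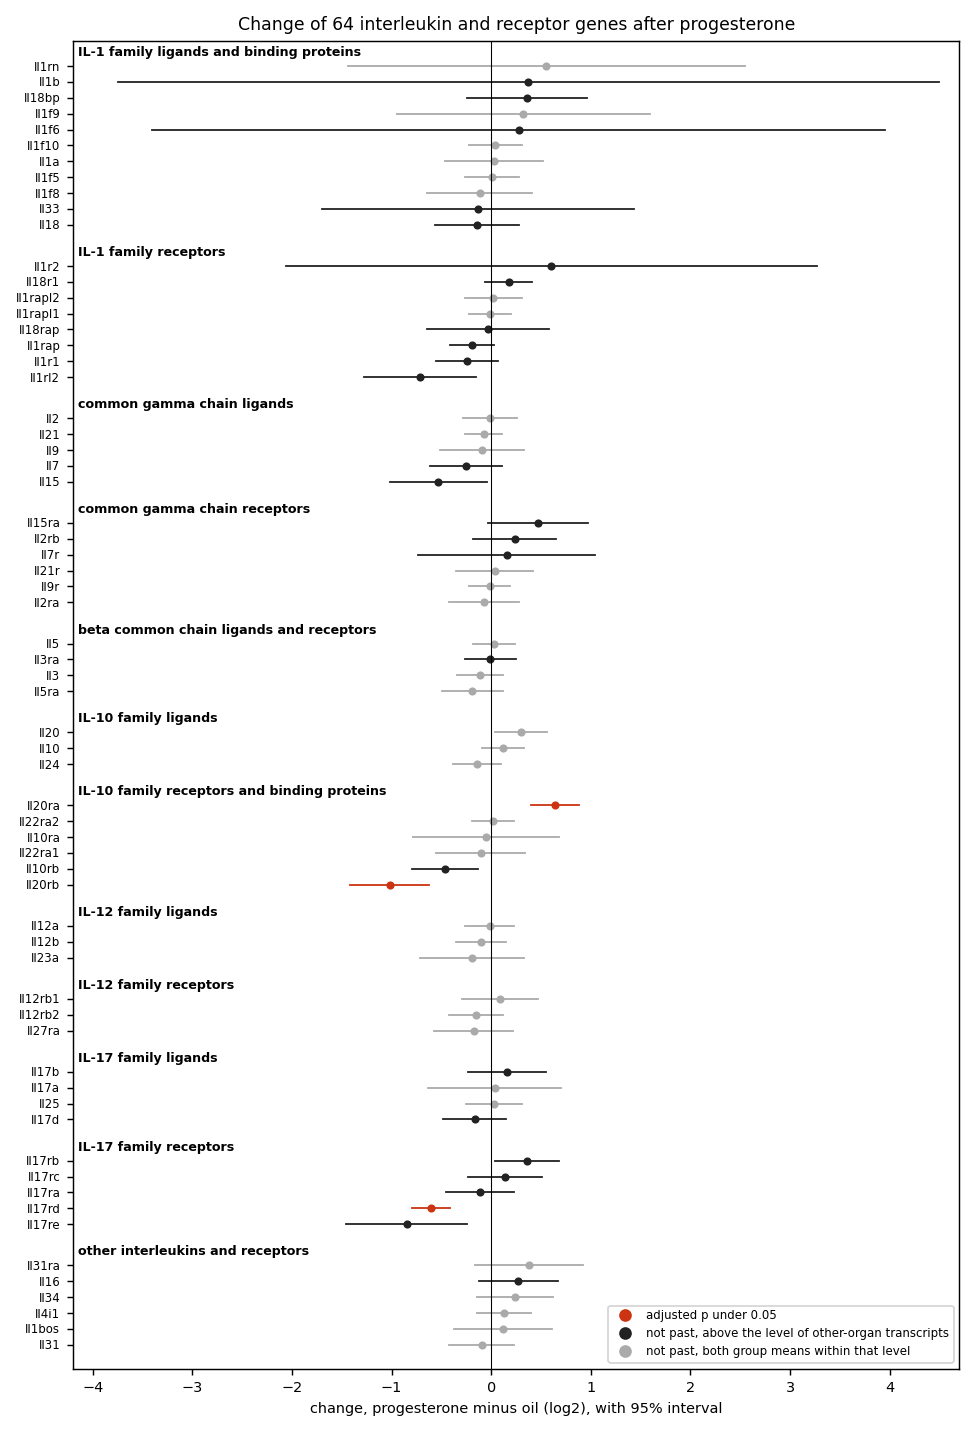
Change of each of the 64 genes, progesterone minus oil, on the log2 scale (horizontal axis), with points for the estimate and lines for its 95% interval from limma, grouped by family and role. The 3 red genes, Il20ra, Il20rb and Il17rd, passed the threshold, and Il1b, Il1f6 and Il1r2 have the widest intervals.

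Counts by other rules are given beside the same share of all genes. In limma, 9 of the 64 had an unadjusted p under 0.05, beside 26.0% of all genes. The groups differed 1.5-fold or more in 6, 2 of them with a higher and 4 with a lower mean after progesterone, beside 9.49% of all genes (4.72% and 4.77%). The arrays of the groups did not overlap for 10, 3 of them higher and 7 lower with progesterone, beside 30.4% of all genes (14.5% higher and 15.9% lower). For 53 of the 64 genes the 95% interval of the change lay within 2-fold in both directions, which is 82.8%, beside 89.6% of all genes. The other 11 were Il1b, Il1f6, Il1f9, Il1rn, Il33, Il1r2, Il1rl2, Il20rb, Il17re, Il15 and Il7r. In 58 genes (90.6%) the range between arrays of one group was wider than the change between groups, beside 77.4% of all genes.

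Many of these genes were dim. TrpnX probe sets, controls for a bacterial transcript, reached 3.34, and 10 of the 64 genes (15.6%) had both group means at or below that level, beside 7.0% of all genes. They were Il1a, Il2, Il3, Il5, Il12b, Il31, Il1rapl1, Il1rapl2, Il4i1 and Il1bos. A second measure of background came from 43 transcripts of other organs, such as eye, tooth, testis and pituitary, whose 90th percentile was 5.17. By that measure 37 of the 64 genes (57.8%) had both group means in the background range, beside 33.4% of all genes. The 27 genes above it included 2 of the 3 that passed the threshold, Il20rb and Il17rd. Among all 12113 genes above that level, 17.1% passed. Levels of different probe sets are not comparable with each other, so both measures only mark genes whose changes are hard to read.

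**Figure D2:**
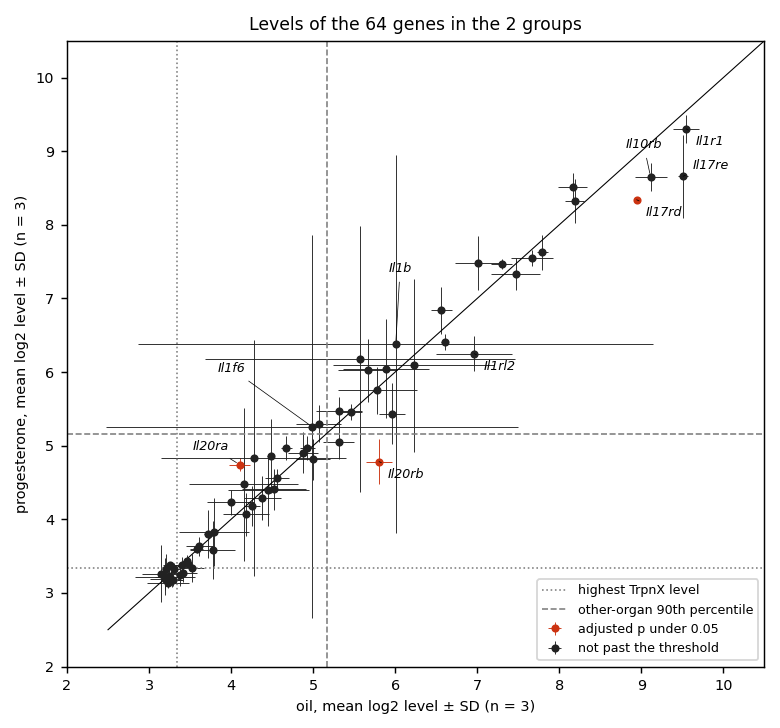
Mean log2 level with oil (horizontal axis) and with progesterone (vertical axis) for the 64 genes, with SD over 3 arrays as error bars and a line of equal levels. Dotted and dashed lines mark the background levels of 3.34 and 5.17, and Il20ra lies between them in both groups.

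Both chains of the receptor shared by interleukins 19, 20 and 24 passed, in opposite directions. Its type I form joins Il20ra to Il20rb, and its type II form joins Il22ra1 to Il20rb. These ligands act mainly on epithelia. Il20rb was 5.98, 5.77 and 5.66 on oil replicates 1 to 3 and 5.10, 4.75 and 4.50 on progesterone replicates 1 to 3. All 3 progesterone arrays lay below all 3 oil arrays, and the progesterone mean of 4.78 ± 0.30 (SD, n = 3) was within the background range of other-organ transcripts, while the oil mean of 5.80 ± 0.16 was above it. The change was -1.02 ± 0.17 (log2, SE; limma adjusted p = 0.012).

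Il20ra moved the other way. It was 3.96, 4.17 and 4.18 with oil and 4.77, 4.82 and 4.64 with progesterone, so the groups lay apart, but every value was below 5.17. Its change was 0.64 ± 0.10 (log2, SE; limma adjusted p = 0.0113). Both genes have a single probe set. Il22ra1, the chain of the type II receptor and of the interleukin 22 receptor, was at 4.18 and 4.07 (adjusted p = 0.804). The interval of its change reached from -0.56 to 0.34.

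The promoters of both chains and of Il17rd are shown because these are the 3 genes that passed, and because the study concerns Gata2, a transcription factor that binds GATA motifs. They are from RefSeq (GRCm38.p6), 250 bases before to 50 after the start site, 5′ to 3′ on the strand of the gene. They lie at chr10:19712337-19712636 (plus strand, Il20ra), chr9:100486424-100486723 (minus strand, Il20rb) and chr14:27038751-27039050 (plus strand, Il17rd). Capitals mark a GATA site, searched on both strands as the letters AGATAA or the letters AGATAG, and likewise the letters TGATAA or the letters TGATAG.
Il20ra: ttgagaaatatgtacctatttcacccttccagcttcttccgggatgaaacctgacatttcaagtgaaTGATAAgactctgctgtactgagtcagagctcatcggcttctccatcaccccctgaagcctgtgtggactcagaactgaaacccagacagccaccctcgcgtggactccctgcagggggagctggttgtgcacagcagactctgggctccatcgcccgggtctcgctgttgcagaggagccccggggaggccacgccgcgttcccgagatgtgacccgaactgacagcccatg
Il20rb: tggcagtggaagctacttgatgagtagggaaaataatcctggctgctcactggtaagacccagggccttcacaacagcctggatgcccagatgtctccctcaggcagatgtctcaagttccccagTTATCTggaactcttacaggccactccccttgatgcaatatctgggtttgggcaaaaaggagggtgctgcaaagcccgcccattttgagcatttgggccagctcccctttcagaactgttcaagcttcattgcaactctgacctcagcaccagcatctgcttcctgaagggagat
Il17rd: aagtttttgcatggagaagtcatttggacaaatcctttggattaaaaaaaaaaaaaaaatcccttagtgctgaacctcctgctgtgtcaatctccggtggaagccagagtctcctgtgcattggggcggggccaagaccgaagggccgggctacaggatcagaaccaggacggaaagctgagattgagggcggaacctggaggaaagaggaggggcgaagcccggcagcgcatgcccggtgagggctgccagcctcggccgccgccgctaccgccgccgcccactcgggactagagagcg
The Il20ra promoter holds TGATAA from 183 bases before the start site and the Il20rb promoter holds TTATCT from 125 bases before it. No GATA site was found in this window of Il17rd. Of all 32851 promoters of this length 29.8% hold a GATA site. By gene the share was 33% of 27025 genes, and 41.7% of the 48 members with an entry (20 genes). The GATA motif was added after the values had been seen. The palindrome bound by the progesterone and glucocorticoid receptors, AGAACA and TGTTCT with any 3 bases between them, was in none of the 48 members and in 0.0111% of all genes. A single arm of it, AGAACA or TGTTCT, was in 7 members (14.6%) and in 21.3% of all genes, and none of the 3 genes above was among them. Every palindrome holds both arms, and the GATA letters share no full motif with them. A match is a run of letters and does not show that a factor binds there.

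Il10rb is the second chain of the receptors for interleukins 10 and 22 and for the lambda interferons. It was 8.89, 9.20 and 9.25 with oil and 8.49, 8.60 and 8.86 with progesterone, far above background and with all progesterone arrays below all oil arrays. Its change of -0.46 ± 0.14 (log2, SE) did not pass (limma adjusted p = 0.0819). A second, dimmer probe set had a change of -0.44. The ligand Il20 was 4.60, 4.68 and 4.74 with oil and 4.85, 4.90 and 5.16 with progesterone (change 0.30 ± 0.11 SE, adjusted p = 0.141), all within the background range. Il10, the anti-inflammatory founder of the family, also had groups that did not overlap, but between 3.18 and 3.38, close to the TrpnX level. Il10ra, Il22ra2 and Il24 had changes between -0.14 and 0.02 and also stayed within the background range.

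**Figure D3:**
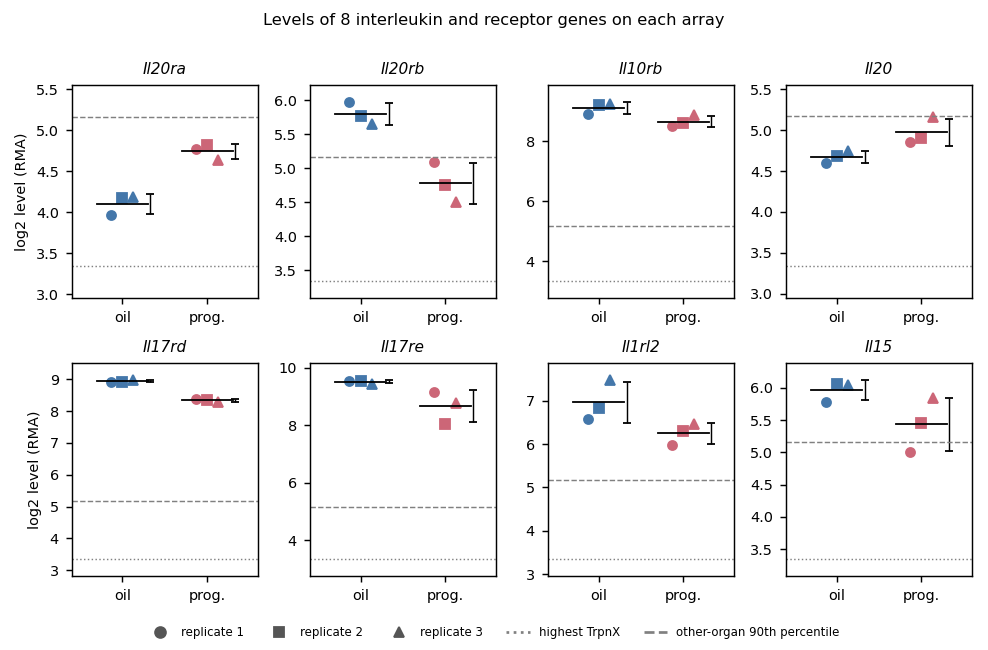
Log2 level of 8 genes on each array (vertical axis, scaled per gene) with oil (blue) and progesterone (red), where horizontal bars are group means, error bars the SD over 3 arrays, and symbols the replicate number. Il20ra rises between the background lines at 3.34 (dotted) and 5.17 (dashed), Il20rb falls from above the dashed line to below it, and the Il17rd arrays sit close together within each group.

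Interleukin 17 receptors were above background in all 5 measured members, and 1 of them passed. Il17rd was 8.93, 8.92 and 8.98 with oil and 8.37, 8.36 and 8.29 with progesterone. The arrays of each group lay close together (SD 0.03 and 0.04), and the groups lay apart. Its change was -0.60 ± 0.08 (log2, SE; limma adjusted p = 0.00698). The other probe set of Il17rd was dim, between 4.13 and 4.48, and had a change of 0.02. With the mean of its probe sets the change of Il17rd was -0.29 and its call ended (limma adjusted p = 0.0702, with 11.1% of all genes past the threshold).

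Il17re, which pairs with Il17ra as the epithelial receptor of interleukin 17C, was 9.54, 9.55 and 9.44 with oil. With progesterone it was 9.16, 8.05 and 8.77, so all 3 arrays were lower but they differed among themselves. Its change was -0.85 ± 0.26 (log2, SE), or 1.80-fold, and did not pass (limma adjusted p = 0.08). All 3 of its probe sets had lower means with progesterone, with changes of -0.85, -0.53 and -0.74. The 10 measured epithelial markers had mean levels of 9.88, 9.58 and 10.42 on progesterone replicates 1 to 3 and of 10.01 to 10.52 with oil, and 7 of the 10 were lowest on progesterone replicate 2, the array where Il17re was lowest. Without progesterone replicate 2 the change of Il17re was -0.55 (limma adjusted p = 0.0871). The part of epithelial content in the level of Il17re was not tested.

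The other interleukin 17 receptors had smaller differences. Il17rb, the receptor of interleukin 25, was 8.16 ± 0.18 with oil and 8.52 ± 0.18 with progesterone (SD, n = 3; limma adjusted p = 0.148), with overlapping arrays. Il17ra, the shared chain, went from 7.67 to 7.55, and Il17rc, its partner for interleukin 17A, from 8.19 to 8.32 (adjusted p = 0.703 and 0.669). Of the ligands, Il17d was at 7.79 ± 0.07 and 7.63 ± 0.24 and Il17b at 5.32 and 5.47. Il17a, the cytokine of T helper 17 cells, and Il25 were within the background range.

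In the interleukin 1 family the arrays of one group differed far more than the groups. Il1b, the inflammatory cytokine of activated myeloid cells, was 4.05 and 4.34 on oil replicates 1 and 2 and 9.63 on oil replicate 3. With progesterone it was 4.32, 5.57 and 9.25. Replicate 3 of each group was high, and the group means of 6.01 ± 3.14 and 6.38 ± 2.56 (SD, n = 3) say little about either treatment. Without the replicate block the change was 0.37 with an interval from -3.75 to 4.50 (limma adjusted p = 0.934). Large differences in either direction would not have been detectable in that fit. With the block the SE of the Il1b change was 0.28 (limma adjusted p = 0.438). Its differences between same-numbered arrays were 0.27, 1.23 and -0.38. Il1f6, which encodes the epithelial alarm cytokine interleukin 36 alpha, was 3.54, 3.53 and 7.88 with oil and 3.78, 3.73 and 8.27 with progesterone. With the block its change was 0.28 ± 0.09 (log2, SE) and did not pass (limma adjusted p = 0.103).

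Inhibitors of interleukin 1, and the family ligand Il1f9, were high on the same arrays. Il1r2, a decoy receptor, was 4.55, 4.42 and 7.75 with oil and 4.54, 5.87 and 8.12 with progesterone. Il1rn, the receptor antagonist, was 3.60, 3.65 and 5.57, then 3.51, 4.36 and 6.61, and Il1f9, interleukin 36 gamma, was 3.82, 3.72 and 4.92, then 3.70, 4.07 and 5.66. Each of these 5 genes was highest on replicate 3 in both groups, as were 25 of the 64 members (39.1%) and 16.02% of all genes. In 120 of 18193 genes, replicate 3 exceeded the other arrays by more than 1 (log2) in both groups. The 5 genes were the only members among them. Ranked by the smaller excess of the groups, Cxcl5, Sprr2d and Cxcl2 led, and S100a8 was at rank 374. The limma adjusted p-values of the 5 genes lay between 0.764 and 0.945. Without replicate 3 of each group, Il1b had a change of 0.75 ± 0.40 (SE, adjusted p = 0.344) and Il1f6 of 0.22 ± 0.11 (adjusted p = 0.322).

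The neutrophil gene S100a8 was 4.92, 4.34 and 11.82 with oil and 5.01, 12.02 and 12.48 with progesterone, so it was also high on progesterone replicate 2, where Il1f6 was 3.73 and close to its level on replicate 1. Il1b, Il1r2 and Il1rn were higher on progesterone replicate 2 than on replicate 1 (5.57 against 4.32, 5.87 against 4.54 and 4.36 against 3.51). The granule genes Ngp and Camp were highest on progesterone replicate 2 (9.05 and 7.88). Csf3r, the receptor of the granulocyte growth factor, was 6.97 on oil replicate 3 and 5.40 and 7.54 on progesterone replicates 2 and 3. Within their group, 10 of the 11 neutrophil markers were highest on oil replicate 3 and 6 on progesterone replicate 3, beside 32.3% and 35.7% of all genes. None of these markers was at the TrpnX level on all arrays. Of the 10 epithelial markers, which share Ltf with the neutrophil list, 5 were highest on oil replicate 3 and 6 on progesterone replicate 3. Their mean level was highest on these arrays (10.52 and 10.42), but that mean includes Ltf. Ltf was 12.06 on oil replicate 3 and at most 8.01 on the other oil arrays. With progesterone it was 12.32 on replicate 3 and at most 8.8 on the others. These means are therefore not a measure of epithelium separate from the neutrophil list. The part of neutrophil or epithelial content in the levels of Il1b, Il1r2, Il1rn and Il1f6 was not tested.

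**Figure D4:**
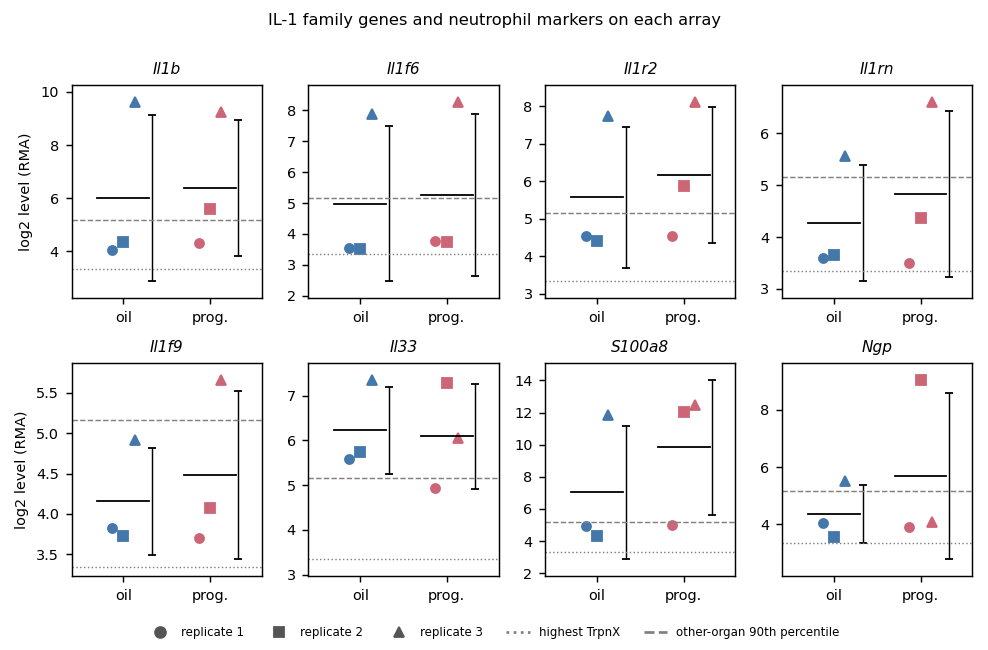
Log2 level of 6 interleukin 1 family genes and the neutrophil markers S100a8 and Ngp on each array (vertical axis, scaled per gene), with oil in blue, progesterone in red, bars for means and SD over 3 arrays, and symbols for replicates. Replicate 3 (triangles) is high in both groups for Il1b, Il1f6, Il1r2, Il1rn and Il1f9, while Ngp is highest on progesterone replicate 2 at 9.05.

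Il33, a nuclear alarm cytokine, had a spread of its own: it was 5.59, 5.73 and 7.35 with oil and 4.93, 7.28 and 6.06 with progesterone. Its change of -0.13 had an interval from -1.70 to 1.43. Il18, a cytokine made by epithelia, was steadier, at 7.47 ± 0.30 and 7.33 ± 0.22 (SD, n = 3; limma adjusted p = 0.694), and its decoy Il18bp was at 5.66 and 6.02. Il1r1, the signalling receptor of interleukin 1, was 9.55 ± 0.16 with oil and 9.30 ± 0.19 with progesterone (adjusted p = 0.312). Its accessory chain Il1rap was 6.58, 6.58 and 6.65, then 6.31, 6.38 and 6.53, which is a small difference without overlap (change -0.20, adjusted p = 0.247). Il18r1 and Il18rap had changes of 0.17 and -0.03.

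Il1rl2, the receptor of the interleukin 36 cytokines, had the largest difference among the interleukin 1 receptors with arrays that lay apart. It was 6.58, 6.83 and 7.48 with oil and 5.99, 6.30 and 6.46 with progesterone, so the progesterone arrays were the lower ones. Its change of -0.71 ± 0.24 (log2, SE), or 1.64-fold, did not pass (limma adjusted p = 0.107). A second probe set of Il1rl2 was dim and had a change of 0.07.

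Among receptors and ligands of the common gamma chain, interleukin 15 and its receptor differed in opposite directions. Neither passed without the replicate block, and both passed with it (limma adjusted p = 0.0409 and 0.0485). Il15, a cytokine that supports natural killer cells, was 5.78, 6.06 and 6.05 with oil and 5.01, 5.45 and 5.84 with progesterone (change -0.53 ± 0.21 SE, limma adjusted p = 0.158). Il15ra, which presents interleukin 15 to other cells, was 6.74, 6.99 and 7.30 with oil and 7.39, 7.17 and 7.88 with progesterone (change 0.47 ± 0.21 SE, adjusted p = 0.222). In both genes the arrays of the groups overlapped. Between same-numbered arrays the differences were -0.77, -0.61 and -0.21 for Il15, and 0.65, 0.18 and 0.58 for Il15ra. Of the 8 measured natural killer cell markers none passed, and their mean level was 4.95 to 5.26 with oil and 4.84 to 5.27 with progesterone. In 6 of the 8 both group means lay within the background range of other-organ transcripts, where a change is hard to read. Il7r, a lymphocyte receptor, was lowest on replicate 1 of each group (5.32 and 5.27) and between 6.00 and 6.48 on the other arrays. The mean levels of the T cell, NK cell, dendritic cell and macrophage lists were also lowest on replicate 1 of each group. So were those of the neutrophil, B cell, innate lymphoid, mast cell, stromal and endothelial lists, so this was not particular to leukocytes. The eosinophil, epithelial, smooth muscle, adipocyte and liver lists did not share it. The part of cell content in the level of Il7r was not tested. Il7 went from 5.31 to 5.05 (adjusted p = 0.361). Il21 had groups that did not overlap, but the values lay between 3.36 and 3.48.

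By the probe set that represents each gene, the remaining families held no gene that passed, nor any with an unadjusted p under 0.05 in limma. The 4 genes of the beta common chain group, which serve eosinophils and other myeloid cells, had changes between -0.19 (Il5ra) and 0.03. Of them only Il3ra, at 5.46 and 5.45, was above the background range. The 6 genes of the interleukin 12 family, whose products steer T cell responses, all lay within that range, with the largest differences in Il23a (change -0.19) and Il27ra (change -0.18). Il31ra, the interleukin 31 receptor, was 4.44, 4.53 and 4.48 with oil and 4.52, 4.63 and 5.43 with progesterone, so a single array carried the difference (adjusted p = 0.371). Il16, a chemoattractant that binds CD4, was 6.56 ± 0.13 and 6.84 ± 0.32, and Il34, a second ligand of the macrophage receptor Csf1r, was 3.99 and 4.23. Another Il16 probe set of similar level went from 6.47 to 6.93, a change of 0.46. In limma on every probe set its unadjusted p was 0.0477 and its adjusted p 0.21. The dimmer Il16 probe sets had changes of -0.13 and 0.06.

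The replicate numbers of the labels paired the arrays by the rule used here. In deviations from the group means, oil replicate 2 still correlated more with progesterone replicate 1 (0.322) than with progesterone replicate 2 (0.141). Calls with the block therefore rest on an uncertain pairing. With the number as a block 2 of the 64 genes were higher and 6 lower, beside 7.6% and 8.49% of all genes (16.1% in either direction). Beside Il20ra (adjusted p = 0.0137), Il20rb (0.00337) and Il17rd (0.0108), the limma fit with the replicate block called Il15ra higher (0.0485). It called Il1rl2 (0.0159), Il10rb (0.0262), Il15 (0.0409) and Il17re (0.0425) lower. In Il1rl2 the differences between same-numbered arrays were -0.59, -0.53 and -1.02. In Il17re they were -0.38, -1.50 and -0.67, and in Il10rb -0.40, -0.60 and -0.39.

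Leaving out single arrays kept the calls of Il20ra and Il17rd in 6 of 6 fits, with adjusted p up to 0.0467 and 0.0372. The call of Il20rb held in 5 of 6 and ended without oil replicate 2 (adjusted p = 0.0545), where the change was -1.04 and 3.61% of all genes passed. Il17re passed without progesterone replicate 1 (change -1.10, adjusted p = 0.0304), where 9.65% of all genes passed. With only the brighter 50% of genes tested, which leaves 11 of the 64, Il17re and Il10rb passed beside Il17rd (adjusted p = 0.0466 and 0.0465), as did 25.7% of all genes tested. Il10rb also passed with the mean of its probe sets (adjusted p = 0.0201). Without replicate 3 of each group, a choice made after the values were seen, Il20ra, Il20rb and Il17rd had changes of 0.73, -0.95 and -0.56 and passed (adjusted p = 0.0387, 0.0376 and 0.0499), beside 5.65% of all genes. Without the 3 arrays with S100a8 above 11, also chosen afterwards, 2 oil arrays and 1 progesterone array remain, and the lone array is assumed to vary like the others. There 0.0% of all genes passed in limma and 18.6% had an unadjusted p under 0.05. The changes of Il20ra, Il20rb and Il17rd were 0.71, -0.78 and -0.56 in that fit (adjusted p = 0.205, 0.19 and 0.19).

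Outside the set, 84 genes of 6 lists were measured, which cover receptor signalling, the inflammasome, and partner chains and ligands. Of them 3 were higher and 4 lower, beside 5.92% and 5.83% of all genes. Myd88, the adaptor that links interleukin 1 and Toll-like receptors to NF-kB, was 8.83, 8.67 and 9.07 with oil and 11.41, 10.71 and 10.69 with progesterone. The groups lay well apart, and the change was 2.08 ± 0.21 (log2, SE), or 4.23-fold (limma adjusted p = 0.00316). It held in 6 of 6 fits without 1 array. In the list of interleukin 1 receptor and NF-kB signalling, 1 of 24 genes was higher and 1 lower, with a median change of -0.06. The lower gene was Irak2, a kinase that binds Myd88, at 7.89, 7.81 and 7.74 with oil and 7.47, 7.49 and 7.41 with progesterone (adjusted p = 0.0419), a call that held in 0 of 6 fits without 1 array.

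**Figure D5:**
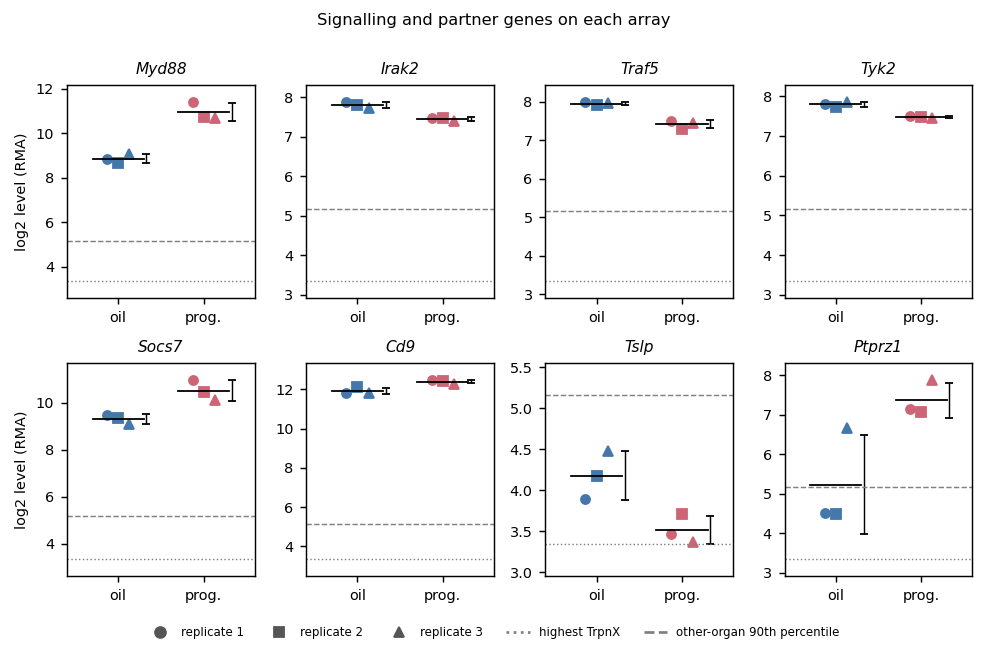
Log2 level of 8 signalling and partner genes on each array (vertical axis, scaled per gene), with oil in blue, progesterone in red, bars for means and SD over 3 arrays, and symbols for replicates. Myd88 rises from 8.86 to 10.94 and Socs7 from 9.32 to 10.52, while Irak2, Traf5 and Tyk2 have small, tight differences downwards.

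Of 12 genes of interleukin 17 receptor signalling 0 were higher and 1 was lower. Traf5, an adaptor of that receptor, was 7.99, 7.90 and 7.96 with oil and 7.51, 7.30 and 7.45 with progesterone (change -0.53 ± 0.09 SE, adjusted p = 0.0151). Its call held in 3 of 6 fits without 1 array, and its other probe set was dim with a change of -0.01. Lcn2, an antibacterial protein induced by interleukin 17, was 8.27, 8.23 and 12.07 with oil and 9.93, 10.37 and 12.69 with progesterone, with replicate 3 high in both groups. Its change of 1.47 did not pass (limma adjusted p = 0.495) and passed as higher with the replicate block (0.0182). Of 10 Janus kinase and STAT genes 1 was lower, Tyk2, a kinase that serves the interleukin 10 and 12 receptors (change -0.33, adjusted p = 0.0485). Its other probe set had a change of 0.24, and the call of Tyk2 held in 0 of 6 fits without 1 array and ended with the replicate block (adjusted p = 0.0612).

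Of 17 inhibitors of that signalling 1 was higher. Socs7, a suppressor of cytokine signalling, was 9.50, 9.36 and 9.09 with oil and 10.97, 10.48 and 10.11 with progesterone (change 1.20 ± 0.22 SE, or 2.30-fold, adjusted p = 0.0172). Of its 4 probe sets a second one passed with a change of 1.24, and the others did not, with changes of 0.49 and -0.02. The mean of the Socs7 probe sets changed by 0.73 (adjusted p = 0.0177). Its call held in 4 of 6 fits without 1 array. The list of inhibitors had a median change of 0.21. With the replicate block Socs1 also passed as higher (adjusted p = 0.0396), and Stat4 passed as the 1 higher gene among the kinases and STATs (adjusted p = 0.00991).

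Of 10 genes of the inflammasome, which matures interleukin 1 beta and 18, none passed in limma, and 2 had an unadjusted p under 0.05. The largest difference was in Casp4 (change -0.83, adjusted p = 0.327). With the replicate block Casp1 and Casp4 were lower (adjusted p = 0.0292 and 0.0235). Of 13 partner chains and ligands without an Il symbol, 1 was higher and 1 lower. Cd9, a membrane protein reported to bind interleukin 16, was at 11.92 and 12.39 (adjusted p = 0.0384), and Tslp, an epithelial cytokine related to interleukin 7, at 4.18 and 3.52 (adjusted p = 0.0467), within the background range. Both calls held in 1 of 6 fits without 1 array. Ptprz1, a receptor of the Il34 product, was 4.52, 4.50 and 6.67 with oil and 7.15, 7.07 and 7.88 with progesterone. Its change of 2.14 did not pass (adjusted p = 0.0569), and it passed with the replicate block (0.00715).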

How the data were processed

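The authors' deposited values are log2 expression values per probe set. The submitters' processing notes name Partek 6.6 and RMA, a method that corrects background, normalizes by quantiles and combines the probes of a set. Which settings were chosen is not given in the sources used here. Precision is limited by the number of arrays. Of 45101 probe sets, 64 were controls, 34945 had 1 gene symbol in the platform annotation, 932 had several and 9160 had none. The 64 genes of the set had 96 probe sets, 23 genes had several, and in 14 of those all probe sets changed in the same direction. All 64 gene identifiers were found in the RefSeq table of GRCm38.p6.

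Groups came from the sample titles. All genes were fitted together in R 4.3.3 by limma 3.58.1, using lmFit then eBayes without filter or block, two-sided, with Benjamini-Hochberg adjustment over 18193 genes. The procedure was tested on simulated data. The members and lists were chosen with earlier results of these data known. Genes were named by a rule: every member that passed, changed at least 1.5-fold or reached a mean of 8, the member of each role class with the largest change, and the 5 with the largest SD. It gave 22 genes. Other genes are given by range or were named after their values were seen. Of pathway lists, up to 4 genes that passed were named, or else the one with the largest change. Ptprz1 and genes called with the block were named after their values were seen. Interleukin genes found only in probe sets with several symbols, such as Il22, were not analysed here, and a search for NF-kB sites is not reported.

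Deviations from the group means correlated across genes between same-numbered arrays at 0.523, 0.141 and 0.636. All were above 0.1, so by a fixed rule the numbers pair the samples. Oil replicate 2, however, correlated more with progesterone replicate 1 (0.322), so the pairing of replicate 2 is uncertain. This pairing comes from the data, since the labels do not say what a number shares. Alternatives were other normalizations and offsets, filters on dim genes, other uses of probe sets, trended and robust eBayes, the replicate block, left-out arrays and stricter thresholds.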

Additional observations from a re-analysis of the deposited data

How the results depend on the processing

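The counts for the 64 genes, 1 higher and 2 lower, were the same with quantile normalization, median centring, an offset of 32, the lowest 25% of genes left out, and trended and robust eBayes. Without single arrays the lower count lay between 1 and 3. With the replicate block the counts were 2 and 6, and the block changed no other call among the 64 genes. With an adjusted p under 0.01 they were 0 and 1, and without the lowest 50% of genes, which drops Il20ra and Il20rb, 0 were higher. Of all genes, 1077 were higher and 1060 lower. Without single arrays these lay between 379 and 848 and between 278 and 907. They were 586 and 441 without both replicate 3 arrays, 328 and 243 with an adjusted p under 0.01, and 674 and 642 with a 1.5-fold minimum. Without the 3 arrays with S100a8 above 11, 0 genes passed in limma (3379 had an unadjusted p under 0.05), which in so small a design says nothing about stability.

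Of pathway genes, 3 were higher and 4 lower, and without single arrays 1 to 3 and 0 to 1. The higher count was 5 with every probe set tested, 7 with the block and 1 with an adjusted p under 0.01. The lower count was 2 with quantile normalization, centring, the mean of probe sets, every probe set, or trended and robust eBayes. It was 1 with a 1.5-fold minimum and 0 with an adjusted p under 0.01 or without both replicate 3 arrays. The count near background was 10 by TrpnX and 37 by other-organ transcripts.

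Genes that were not called changed sign in some fits, and the cause was not tested. Without both replicate 3 arrays Il17d was at 0.005 and Il33 at 0.445. Without the arrays high in S100a8, Il1rn was at -0.115 and Il5ra at 0.04. Without single arrays the change lay between -0.24 and -0.03 for Il17d, -0.032 and 0.25 for Il17rc, -1.06 and 2.19 for Il1b, -1.23 and 1.73 for Il1f6, -0.37 and 1.69 for Il1r2, -0.34 and 1.21 for Il1rn, -0.38 and 0.013 for Il23a, and -0.73 and 0.45 for Il33.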
